A study of Homo sapiens with 4 samples.

Results

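HOX genes encode homeodomain transcription factors that give cells along the body axis their regional identity. The 39 human HOX genes were taken as the protein-coding genes of GENCODE on hg19 whose symbol is HOX, a cluster letter from A to D and a number, out of 20163 protein-coding genes. A FAIRE site belonged to them when it lay within 10 kb of a HOX gene body. This gave 22 of the 34423 sites listed in basal conditions and 23 of the 31219 listed under SF-1 overexpression, which merged into 32 of 46938 distinct sites.

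FAIRE-seq, in which DNA of formaldehyde-fixed chromatin that is not bound up in protein is extracted and sequenced, recovers DNA with few nucleosomes, which marks accessible regulatory regions. Both libraries came from H295R/TR SF-1 cells. This subclone derives from a single adrenocortical tumour line, H295R, and carries the nuclear receptor SF-1 (NR5A1) under the control of doxycycline. The basal library was made at the cells' own SF-1 level and the overexpression library after 3 days of doxycycline. As the control cells received no doxycycline according to the study's methods, SF-1 dosage and the drug itself cannot be told apart. There was 1 FAIRE library per condition, so no test between conditions exists, and the intervals below are exact 95% (Clopper-Pearson) intervals unless named otherwise and cover counting error only. The lists held no read counts, so depth is unknown. The lack of a listed site is not evidence of closed chromatin.

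The clusters are read in order: genes with low paralogue numbers are used early and anteriorly in the embryo, and those with high numbers late and posteriorly. Retinoic acid switches on the low-numbered end, Polycomb proteins hold unused genes silent, Trithorax proteins keep used ones active, and CTCF, which binds DNA and stops cohesin loops, forms borders inside the clusters. HOX proteins bind DNA together with the TALE homeodomain proteins PBX, MEIS and PKNOX.

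Of the 32 merged sites, 5 held a CTCF motif with 1 mismatch in its 12-letter core. These sequences are shown because they are the CTCF matches inside open sites of the clusters, and the letters in capitals mark the match, read 5′ to 3′ on the strand of the motif in GRCh37, the assembly behind hg19.
HOXA5 start, shared site, chr7:27183535-27183546, minus strand: gccctgcctCCAGCGGGTGGCgctcgagtc
HOXA10, overexpression-only site, chr7:27219525-27219536, minus strand: gcgcagccgCCACGAGATGGCgcacttccg
HOXB7 intron, shared site, chr17:46696108-46696119, minus strand: gcagagcagCCGCTAGATGGCacccttgct
Upstream of HOXD12, basal-only site, chr2:176962487-176962498, minus strand: gcccaatgcCCAGGAGATGGCgagcgcgct
HOXD-AS2 intron, overexpression-only site, chr2:176991933-176991944, plus strand: ggcatttggCCACTAGAGAGCgctgttgct

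Another 5 sites held the SF-1 motif, CAAGGTCA or CAAGGCCA on either strand. They are shown because SF-1 was the protein whose dosage was changed, with the motif in capitals on its own strand.
HOXA9 intron near MIR196B, overexpression-only site, chr7:27208836-27208843, minus strand: tgggccattCAAGGTCAggggcgccc
HOXA9 and HOXA10 introns, overexpression-only site, chr7:27212837-27212844, plus strand: gcaagttcaCAAGGTCAgcctgcctg
HOXA13, shared site, first match, chr7:27236050-27236057, plus strand: gtcaaaagtCAAGGTCAcaaattgtc
HOXA13, shared site, second match, chr7:27236078-27236085, plus strand: ttttttcgtCAAGGTCAaggtttaag
HOXC10 start, basal-only site, chr12:54378842-54378849, plus strand: ctgaatcatCAAGGCCAttttcaaat
HOXD-AS2 exon upstream of HOXD3, shared site, chr2:176999833-176999840, plus strand: aaaaacatcCAAGGTCAtcagaactt

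For 4 of the 6 motif-bearing sites found in 1 list alone, the sequence around the match is given at greater length, with the motif again in capitals. The other two, at HOXA10 and HOXC10, overlap UTRs and are shown only by the short stretches above.
HOXA9 intron near MIR196B, whole overexpression-only site, chr7:27208751-27208899, minus strand: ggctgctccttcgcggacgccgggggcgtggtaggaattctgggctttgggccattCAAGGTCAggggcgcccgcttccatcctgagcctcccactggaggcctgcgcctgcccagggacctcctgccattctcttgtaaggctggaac
HOXA9 and HOXA10 introns, 180 bases of the overexpression-only site, chr7:27212751-27212930, plus strand: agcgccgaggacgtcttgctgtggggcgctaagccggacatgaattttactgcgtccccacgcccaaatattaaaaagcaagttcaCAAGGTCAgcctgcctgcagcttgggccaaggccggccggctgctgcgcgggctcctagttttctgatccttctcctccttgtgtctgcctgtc
Upstream of HOXD12, whole basal-only site, chr2:176962351-176962549, minus strand: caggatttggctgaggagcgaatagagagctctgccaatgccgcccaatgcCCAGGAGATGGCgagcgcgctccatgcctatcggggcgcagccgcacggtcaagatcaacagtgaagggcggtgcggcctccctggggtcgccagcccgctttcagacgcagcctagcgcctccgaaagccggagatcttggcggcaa
HOXD-AS2 intron, whole overexpression-only site, chr2:176991851-176991999, plus strand: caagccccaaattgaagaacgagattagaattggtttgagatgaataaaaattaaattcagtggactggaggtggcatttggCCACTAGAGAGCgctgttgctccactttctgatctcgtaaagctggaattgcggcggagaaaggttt

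Open sites were unevenly spread over the clusters. HOXA held 7 basal and 12 overexpression sites, HOXB 6 and 5, HOXC 6 and 4, and HOXD 3 and 2. HOXA was therefore the cluster with more sites under overexpression, while the others had 1 or 2 fewer. Merged sites per 100 kb of gene window numbered 11 in HOXA, 5.1 in HOXC, 4.7 in HOXB and 3.38 in HOXD. Over all HOX windows (532 kb) the density was 6.02 per 100 kb, against 2.24 per 100 kb of the windows of all protein-coding genes. HOX genes are short and packed, with 7.34 genes per 100 kb of window against 1.33, so that per gene the order was the opposite, with 0.821 merged sites per HOX gene and 1.68 per protein-coding gene. The 100 kb on either side of the cluster windows held 21 merged sites, or 2.62 per 100 kb.

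**Figure D1:**
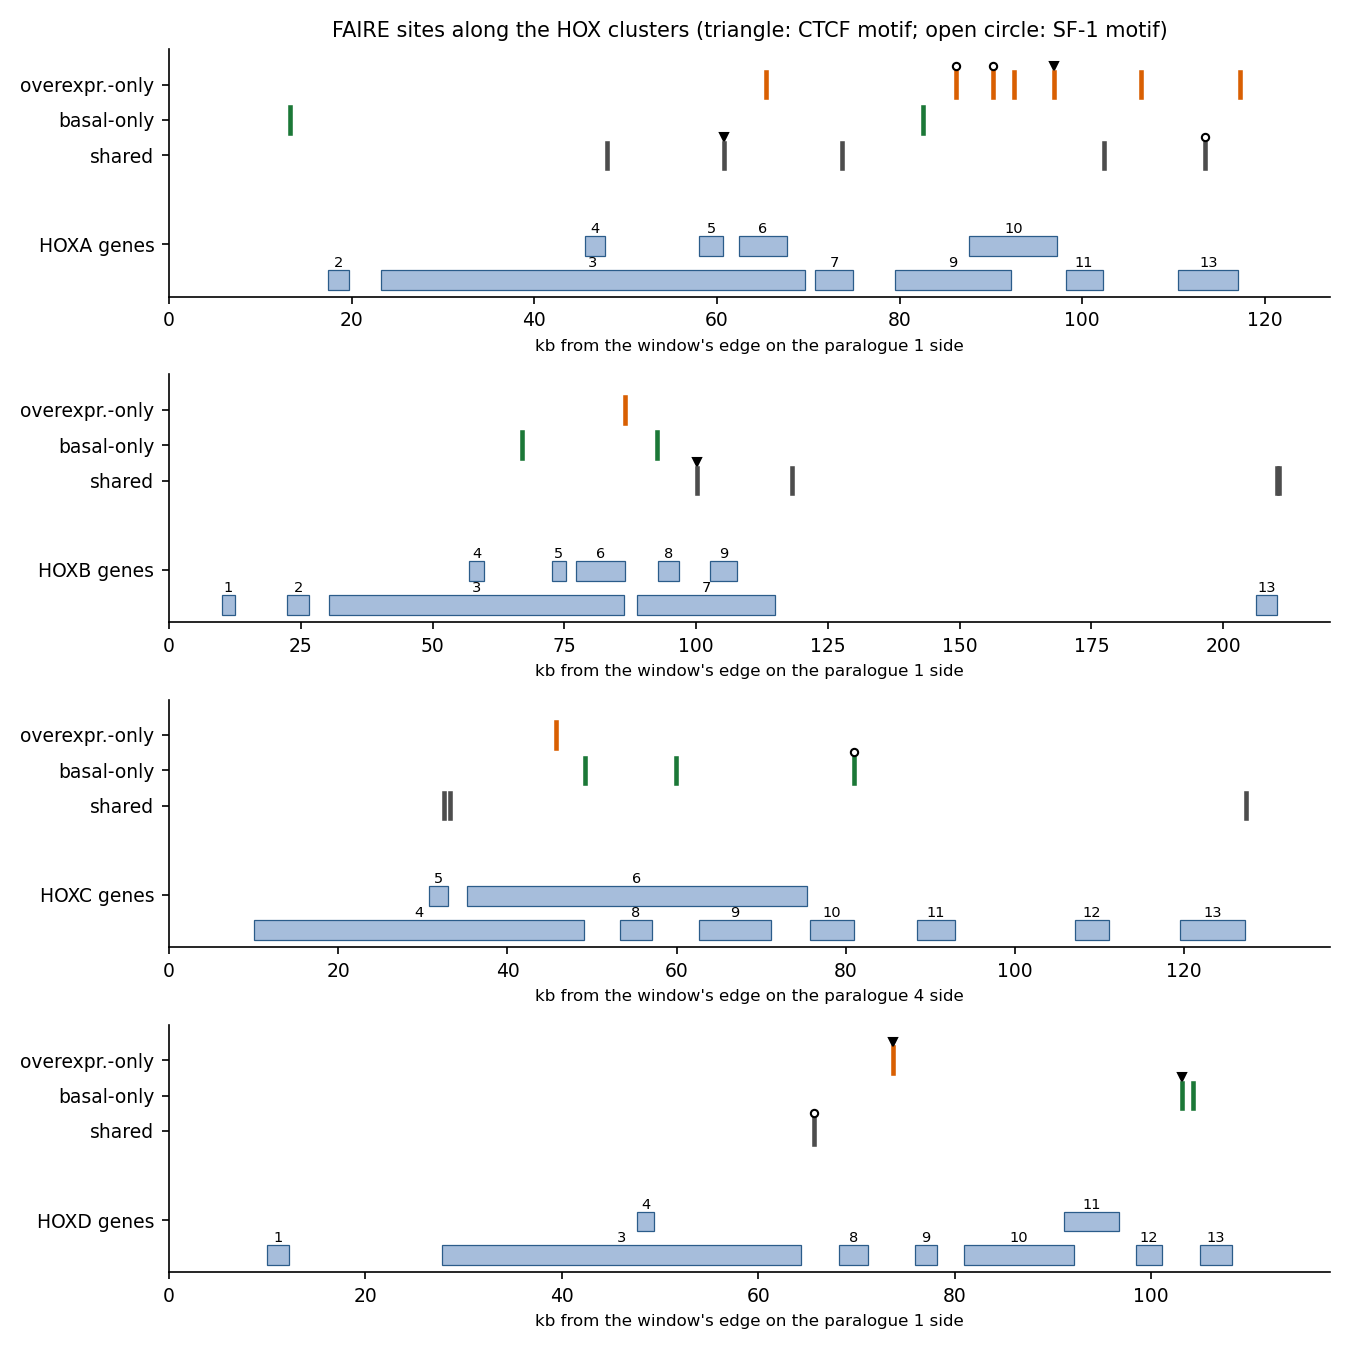
Map of the FAIRE sites in each HOX cluster. The horizontal axis is the distance in kb from the edge of the window, 10 kb outside the outermost gene, with the lowest paralogue number at the left. Blue bars are genes with their paralogue numbers, not every gene being drawn, and coloured ticks are merged sites by class, with a triangle for a CTCF motif and an open circle for an SF-1 motif. In HOXA, 6 of the 8 sites for which the nearest HOX 5′ end is that of HOXA9 to HOXA13 are overexpression-only. A basal-only site inside HOXA9 is nearer to the annotated 5′ end of HOXA7 and is not counted, though it lies within 1 kb of another HOXA9 transcript start. An interval of 91.9 kb before HOXB13 holds no site.

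Sites that had at least 1 bp in common with a site from the opposite list were taken as shared, and the rest as condition-only. The 32 merged HOX sites comprised 13 shared, 9 basal-only and 10 overexpression-only sites. In the basal list 13 of 22 HOX sites were shared (59.1%, 36.4 to 79.3), against 58.1% of the other sites within 10 kb of protein-coding genes (difference 0.992 percentage points, Newcombe interval -19.4 to 18.7). In the overexpression list 13 of 23 were shared (56.5%, 34.5 to 76.8), against 62.9% (difference -6.41 percentage points, -26.1 to 11.4). Turnover at HOX genes was thus not distinguishable from that near other genes at these numbers of sites. The ratio of overexpression-only to basal-only sites was 1.11 at HOX genes (exact binomial interval 0.406 to 3.09) and 0.798 over all sites (0.780 to 0.817). It was 3.5 in HOXA, from 7 and 2 sites, with an interval of 0.666 to 34.5 that includes the value over all sites. In HOXB and HOXD it was 0.5, from 1 and 2 sites, and in HOXC 0.333, from 1 and 3 sites.

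**Figure D2:**
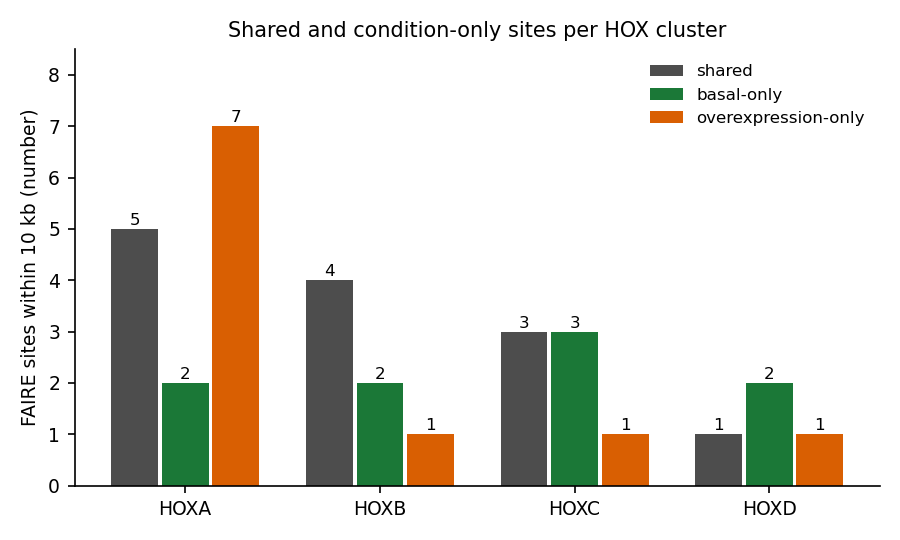
Number of merged FAIRE sites within 10 kb of the genes of each HOX cluster, by class, with 1 library per condition and hence no error bars. HOXA has 7 overexpression-only and 2 basal-only sites, and each of the other clusters has 1 overexpression-only site and 2 or 3 basal-only sites.

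The HOXA cluster on chromosome 7 held 11 genes. An interval of 34.5 kb without a site held HOXA2 and HOXA4 whole and much of HOXA3. It ended at a shared site (chr7:27170451-27170699) 52 bp upstream of HOXA4. The next site (chr7:27183201-27183649) covered the 5′ end of HOXA5, a gene of lung development, was 399 bp wide in basal conditions and 449 bp under overexpression, and held a CTCF motif.

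From the HOXA5 site to HOXA13 ran the longest series of sites in any cluster, 12 merged sites in 56.9 kb without an interval of 10 kb between neighbours. It comprised 4 shared, 1 basal-only and 7 overexpression-only sites and held the 5′ ends of 8 HOX genes. By nearest 5′ end, 8 of these sites fell to HOXA9, HOXA10, HOXA11 or HOXA13, of which 2 were shared and 6 overexpression-only. Over all merged sites, 12585 of 46937 were overexpression-only. The basal-only site lay in the UTR of HOXA9 but nearer to the annotated 5′ end of HOXA7, so it is not among the 8. It lay within 1 kb of the start of another annotated HOXA9 transcript, so the count of 8 depends on the start used. HOXA9 and HOXA10 are used in blood progenitors and, in the case of HOXA10, in the uterus, and HOXA11 and HOXA13 in kidney, limb and genital tract. HOXA9 had 2 basal and 5 overexpression sites within 10 kb, HOXA10 2 and 6, HOXA11 1 and 5, and HOXA13 2 and 4. These counts overlap, since neighbours share sites.

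The overexpression-only site of highest place in its list among the HOX sites lay here, at chr7:27212601-27212999. It was 399 bp wide, held the SF-1 motif printed above and reached from the introns of HOXA9 and HOXA10 into a coding exon of HOXA10. Sites were numbered by the authors, wide sites mostly first, and this one stood 13.2% down the list. Of all overexpression sites up to that place, 4.90% were overexpression-only. A neighbouring 149 bp site (chr7:27208751-27208899) 284 bp from MIR196B, a microRNA gene of the cluster, stood far lower, at 83.3%, and held an SF-1 motif too. Sites at chr7:27215001-27215199, 202 bp upstream of the annotated 5′ end of HOXA9, and at chr7:27219401-27219549, 331 bp inside HOXA10 and with a CTCF motif, were 199 and 149 bp wide and stood at 66.5% and 84.3%.

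Further along, a shared site (chr7:27224801-27225099) covered the 5′ end of HOXA11. An overexpression-only site (chr7:27228901-27229149) overlapped only the last bases of HOXA11-AS, the antisense RNA of HOXA11, and ran on past the end of that gene. A shared site with 2 SF-1 motifs (chr7:27235851-27236199) overlapped the UTR of HOXA13. The cluster closed with a 349 bp overexpression-only site (chr7:27239751-27240099) 41 bp upstream of HOXA13, in an exon of HOTTIP, the non-coding RNA at the posterior end. With 78.2% GC this was the most GC-rich of the 32 sites. Between HOXA5 and HOXA9 lay an overexpression-only site in HOXA6 (chr7:27187801-27188049, 249 bp), a shared one in HOXA7 (chr7:27196151-27196399), and a basal-only one of 99 bp in the UTR of HOXA9 (chr7:27205151-27205249), the last of the HOX sites in the basal list, at 93.1%.

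In HOXB (chr17:46605888-46806112, 10 genes) the low-numbered end was without sites. HOXB1 and HOXB2, which pattern the hindbrain, had none within 10 kb in either list, and 66.9 kb from the edge of the window to the first site passed HOXB1, HOXB2 and HOXB4. HOXB4, known for its role in blood stem cells, and HOXB5 shared 1 basal-only site (chr17:46662801-46662999) 7089 bp upstream of HOXB4. The overexpression-only site (chr17:46682251-46682499) covered the 5′ ends of HOXB3 and HOXB6, which lie close together, and stood at 86.5% of its list. A basal-only site (chr17:46688351-46688499) followed in the UTR of HOXB7. The shared site with a CTCF motif (chr17:46695951-46696249, 249 bp in both lists) lay in an intron of HOXB7, 3297 bp upstream of HOXB8.

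Another shared site (chr17:46713951-46714199) lay 3017 bp upstream of HOXB7 and moved from 83.9% of the basal list to 24.3% of the overexpression list, its width being 149 and 249 bp. Then came the longest empty interval as counted inside the cluster windows, 91.9 kb up to HOXB13. This gene of the tail bud and prostate stands apart from the rest of the cluster. HOXB13 had a pair of shared sites, one over its 5′ end (chr17:46806051-46806299) and one 239 bp upstream (chr17:46806351-46806599). The first of them moved the opposite way, from 18.3% of the basal list to 73.0% of the overexpression list, with widths of 249 and 149 bp.

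HOXC (chr12:54332615-54449814, 9 genes) began with the widest HOX site in both lists. It covered the 5′ end of HOXC13 and reached into its coding sequence (chr12:54332201-54332799), a gene of hair and nail formation, at 449 bp in basal and 599 bp in overexpression conditions. It stood at 0.988% and 2.49% of the lists, the first HOX site in either. HOXC12 had no site within 10 kb, and HOXC11, HOXC10 and HOXC9 had basal sites alone. The site of HOXC10 (chr12:54378701-54378949, basal-only, 249 bp), a gene of lumbar motor neurons, covered its 5′ end and held an SF-1 motif. A basal-only site (chr12:54399801-54400049) lay 2720 bp upstream of HOXC8, and one of 99 bp (chr12:54410651-54410749) covered the annotated 5′ end of HOXC4. The only overexpression-only site of the cluster (chr12:54413801-54414299) was its second widest, at 499 bp, and stood at 23.7% of the list, where 1 in 10 of the sites up to it was overexpression-only. It lay in introns of HOXC4 and HOXC6, 107 bp from the start of a non-coding RNA. A pair of shared sites lay 35 bp upstream of HOXC5 (chr12:54426501-54426799) and in its coding exon (chr12:54427151-54427399), the latter 335 bp from MIR615.

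HOXD (chr2:176957449-177055635, 9 genes), whose high-numbered genes shape digits and genitalia, had the fewest sites. HOXD11, HOXD12 and HOXD13 had basal sites alone, the same pair of basal-only sites 3024 bp (chr2:176961301-176961499) and 1974 bp (chr2:176962351-176962549) upstream of HOXD12. HOXD9 and HOXD10 had an overexpression site alone, a 149 bp site in an intron of HOXD-AS2 (chr2:176991851-176991999), 2423 bp upstream of HOXD8. The site nearer to HOXD12 and the HOXD-AS2 site held the CTCF matches printed above. The single shared site (chr2:176999751-177000099) lay 1241 bp upstream of the annotated 5′ end of HOXD3 and stood at 11.3% and 13.2% of the lists. No CpG was present in its sequence (observed to expected ratio 0.00). HOXD4 and HOXD1 had no site within 10 kb.

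**Figure D3:**
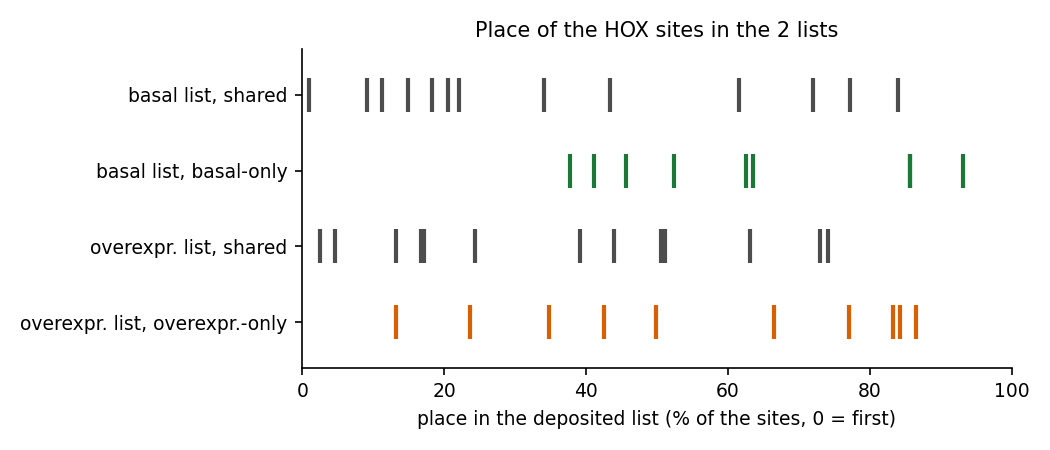
Place of each HOX site in the deposited list it belongs to, as the percentage of the list's sites up to its number, by list and class. The basal-only sites begin at 37.8%, while the overexpression-only sites begin at 13.2%, and shared sites start at 0.988% of the basal list and 2.49% of the other.

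The place of the HOX sites in the lists differed by class. Over the 22 basal HOX sites the median place was 44.5%, with 22.1% for shared and 62.6% for basal-only sites, against 32.7% and 67.4% over all sites of the list. Over the 23 overexpression HOX sites it was 43.9%, with 39.2% for shared and 58.2% for overexpression-only sites, against 35.5% and 67.8%. Condition-only HOX sites thus came later in the lists than shared ones, with the 2 wide overexpression-only sites in HOXA and HOXC as the earliest.

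By gene, 32 of 39 HOX genes had a basal site within 10 kb (82.1%, 66.5 to 92.5), where 70.2% of protein-coding genes did. For overexpression sites it was 24 (61.5%, 44.6 to 76.6), where the background was 71.1%. For a site of either list it was 34 (87.2%), beside 77.5%. A shared site was found near 19 HOX genes (48.7%), beside 59.6%, a basal-only site near 21 (53.8%), beside 36.9%, and an overexpression-only site near 19 (48.7%), beside 36.8%. Since 10 kb windows of packed genes overlap, 1 site was counted for several HOX genes, and the intervals, which treat genes as independent, are too narrow. Among the 13997 protein-coding genes no longer than the longest HOX gene, the same shares were 63.9% for a basal, 65.7% for an overexpression, 25.9% for a basal-only and 29.2% for an overexpression-only site.

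**Figure D4:**
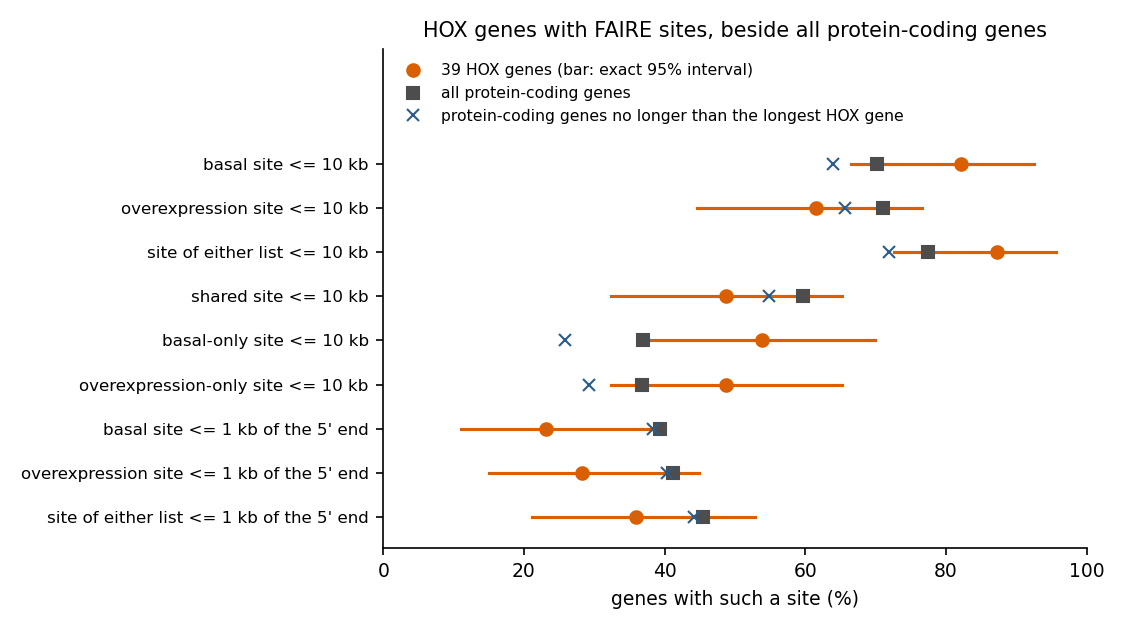
Share of genes with each kind of FAIRE site, in percent. Orange points are the 39 HOX genes with exact 95% intervals, grey squares all protein-coding genes and blue crosses the 13997 no longer than the longest HOX gene. The HOX share is above the grey square for basal, either-list and condition-only sites within 10 kb, and below it for overexpression and shared sites within 10 kb and at 5′ ends.

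Sites at the starts of HOX genes were counted next. Within 1 kb of the 5′ end, 9 HOX genes had a basal site (23.1%, 11.1 to 39.3), beside 39.4% of protein-coding genes, 11 an overexpression site (28.2%, 15.0 to 44.9), beside 41.2%, and 14 a site of either list (35.9%, 21.2 to 52.8), beside 45.5%. The intervals for the overexpression list and for either list include their backgrounds, and the upper bound for the basal list lies next to its own, so no difference is read from these shares. HOXA4, HOXA5, HOXA11, HOXB13, HOXC5 and HOXC13 had such a site in both lists. HOXC4 and HOXC10 were among those with one in the basal list alone, and HOXA9, HOXA10, HOXA13, HOXB3 and HOXB6 in the overexpression list alone. Annotated 5′ ends of HOX genes include long and rare transcripts. With the start of any annotated transcript, 14 HOX genes had a basal site within 1 kb (35.9%, beside 46.7% of protein-coding genes), 13 an overexpression site (33.3%, beside 48.9%) and 18 a site of either list (46.2%, 30.1 to 62.8, beside 53.9%). By this count HOXA6, HOXA7, HOXB7 and HOXC6 joined the genes with a site. HOXA9 and HOXA13 then had one in both lists.

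By paralogue number, 8 of 12 genes numbered 1 to 4, 11 of 11 numbered 5 to 8 and 15 of 16 numbered 9 to 13 had a site of either list within 10 kb, beside the 77.5% of protein-coding genes. Neighbours again shared sites, and no order is read from these counts. At the low end, HOXA2 had 1 basal-only site and none in the overexpression list, and HOXB1, HOXB2 and HOXD1 had no site in either. All 4 paralogues 13 had a site. HOXA13 had 2 shared and 2 overexpression-only sites, HOXB13 and HOXC13 shared sites alone and HOXD13 basal-only sites. All 4 paralogues 9 had one as well, but of different classes: HOXA9 had both shared and condition-only sites, HOXB9 a shared site, HOXC9 basal-only sites and HOXD9 an overexpression-only site.

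Intervals of at least 10 kb without a site in either list numbered 15 and made up 486 of the 603 kb of the 4 cluster windows (80.7%). The same share for other regions is not given here. Merged sites were denser at HOX genes (6.02 per 100 kb) than around all protein-coding genes (2.24), so no emptiness particular to the clusters is read from it. They covered 47.2% of the HOXA window, 88.9% of HOXB, 88.9% of HOXC and 92.0% of HOXD. Inside the windows the longest was the 91.9 kb before HOXB13. It was followed by 66.9 kb over HOXB1, HOXB2 and HOXB4, 65.5 kb over HOXD3, HOXD4 and HOXD1, and 45.9 kb over HOXC12 and HOXC11. In HOXD another of 29.3 kb held HOXD9, HOXD10, HOXD11 and HOXD12 whole. Windows reached 10 kb beyond the outermost genes, so intervals at an edge were cut there. Beyond HOXB1 the next site (chr17:46570001-46570149) lay 35.7 kb from the cluster end. Beyond HOXD1 the next one (chr2:177105101-177105199) lay 49.5 kb from it. Counted up to these sites, both edge intervals are longer than the 91.9 kb before HOXB13. The 100 kb beyond the HOXC window on the HOXC13 side held 0 sites. The ranking therefore holds only inside the windows.

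CTCF motifs occurred at HOX sites and elsewhere at shares that could not be distinguished. They were present in 5 of 32 merged HOX sites (15.6%, 5.28 to 32.8) and in 16.5% of the 46937 merged sites on the nuclear chromosomes (difference from the other sites -0.885 percentage points, Newcombe interval -9.65 to 15.2). Of the 19 sites that bordered an empty interval of 10 kb, 4 held one (21.1%, 6.05 to 45.6), and of the 13 others 1 did (7.69%, 0.195 to 36.0), so the shares were not distinguishable. The 4 were the HOXA5 start site, the HOXB7 intron site, the site upstream of HOXD12 and the HOXD-AS2 intron site. Only the first and the second were in both lists. The cluster windows held 55 CTCF matches with up to 1 mismatch, of which 5 lay in a site (9.09%), beside 5.25% of such matches in the genome. Exact matches numbered 3 and none lay in a site, where 21.0% of the 10977 exact matches in the genome did. They lay between HOXA7 and HOXA9 (chr7:27200757-27200768), within HOXB3 (chr17:46628536-46628547) and in the empty interval before HOXB13 (chr17:46740684-46740695). A letter match does not show binding.

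SF-1 motifs were present in 5 of 32 HOX sites (15.6%) and in 13.3% of all merged sites (difference 2.30 percentage points, -6.47 to 18.4). They were spread over classes, in 2 shared, 1 basal-only and 2 overexpression-only sites. Of 67 matches in the cluster windows 6 lay in a site, of which 4 of 17 in HOXA, 1 of 17 in HOXC, 1 of 18 in HOXD and 0 of 15 in HOXB. The HOXA count includes 2 matches in 1 site, and HOXA held 14 of the 32 merged sites. The share of SF-1 matches in sites over the genome is not given here, so no difference between clusters is read from these counts. The AP-1 motif (TGACTCA or TGAGTCA), the NRSF/REST motif, a retinoic acid response element, a PBX-HOX element (TGATTNAT) and a control of the same base composition as the SF-1 motif (GACACGCA or GACATGCA) were in 0 of 32 sites, which allows a share of up to 10.9%. In all merged sites they were in 6.69%, 0.411%, 0.107%, 5.37% and 1.01%. The windows held 5 retinoic acid response elements and 78 PBX-HOX elements, all outside sites.

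**Figure D5:**
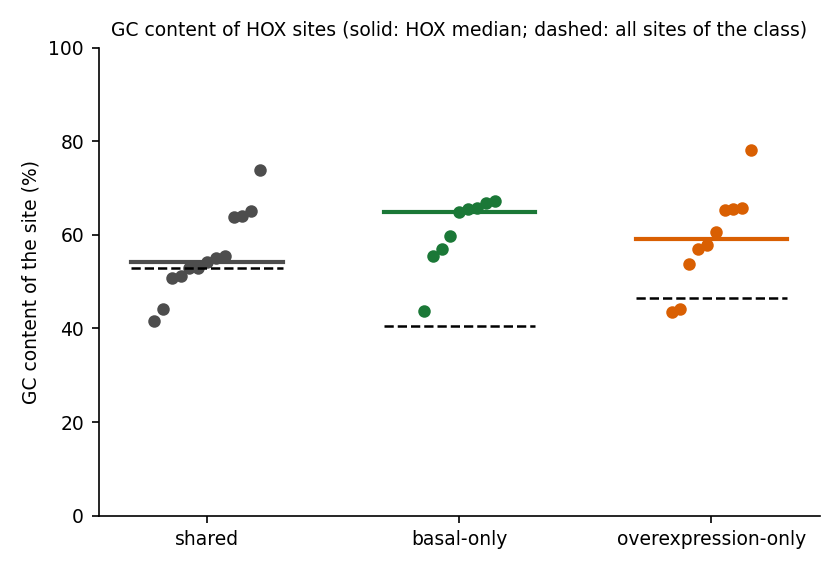
GC content of each HOX site in percent, by class. Solid lines are the medians of the HOX sites and dashed lines those of all merged sites of the class. The medians for HOX are 54.3%, 64.8% and 59.2% for shared, basal-only and overexpression-only sites, against 53.0%, 40.5% and 46.5%.

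The condition-only HOX sites were rich in GC. Their median GC content was 64.8% in the 9 basal-only sites (range 43.7 to 67.2) and 59.2% in the 10 overexpression-only sites (43.6 to 78.2), while over all sites of these classes it was 40.5% and 46.5%. Shared HOX sites had 54.3% (41.5 to 73.9), close to the 53.0% of all shared sites. The ratio of observed to expected CpG, which is high in CpG islands, had medians of 0.68, 0.86 and 0.66 in shared, basal-only and overexpression-only HOX sites, against 0.44, 0.20 and 0.21. The cluster windows themselves had 49.3 to 51.8% GC. Within 1 kb of a HOX 5′ end lay 8 shared, 3 basal-only and 4 overexpression-only sites, 15 of 32 in all. The same count over all merged sites is not given here, so no trait of HOX sites is read from it. Whether it bears on the GC content was not tested.

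Genes that act with HOX proteins were counted in the same way, and the share to read them against is the 77.5% of protein-coding genes with a site of either list. All 9 TALE cofactors had a site within 10 kb in both lists. MEIS2 had 11 basal and 8 overexpression sites, and PBX3 8 and 9. Of the Polycomb and Trithorax genes 17 of 17, of the CTCF and cohesin genes 8 of 8 and of the retinoic acid pathway 10 of 14 (71.4%) had a site, whereas 2 of 8 EVX and ParaHox genes, the nearest relatives of HOX genes, did. EVX1 and EVX2, which sit at the ends of HOXA and HOXD, had none. Among the genes of retinoic acid synthesis ALDH1A1 had 7 basal and 8 overexpression sites, ALDH1A2 11 and 9 and ALDH1A3 none. Among those of its degradation CYP26B1 had 1 overexpression site, and CYP26A1 and CYP26C1 had none. These genes differ in length, so the counts are not comparable with each other. Of the adrenocortical genes 9 of 9 had a site of either list, beside the same 77.5%. In the basal list 7 had one, beside 70.2% of protein-coding genes. In the overexpression list 7 did too, not all of them the same genes, beside 71.1%. With so few genes and such backgrounds, these counts do not check the cell type. STAR had 2 basal and 4 overexpression sites, CYP11A1 3 and 4, HSD3B2 2 and 1, INHA 1 and 0, and NR5A1 itself 2 and 0. CYP17A1 and CYP21A2 had 1 in each list, MC2R 0 and 1, and NR0B1 0 and 2. A FAIRE list gives accessibility and not expression, so this does not show that they were active.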

How the data were processed

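FAIRE-seq libraries from 2 conditions were used, 1 basal and 1 SF-1 overexpression. Input DNA was sequenced too but not analysed here. The authors deposited 1 peak list per library as a browser track on hg19, with a running number and a score. The deposited score was 1000 for every peak, so it was not informative and the place of a site in the list and its width were used. The submitters' processing notes name CASAVA 1.8. The caller and threshold for FAIRE are not given in the sources used here. Read depth is unknown.

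Genes came from GENCODE release 44 on GRCh37, and sequences from GRCh37. Sites of both lists were merged where they overlapped by 1 bp. Motifs were searched on both strands of whole sites, and CTCF allowed 1 mismatch. All 39 HOX genes were named, and sites given with coordinates were the widest, condition-only, motif-bearing and bordering ones, with the remainder added for completeness. Members and gene lists were chosen with earlier results of these data known. No test between conditions was possible with 1 library each. Scripts were tested on simulated data and used Python 3.11, numpy 2.4.6, scipy 1.17.1 and pandas 2.3.3. Some results are not reported here.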

Additional observations from a re-analysis of the deposited data

How the results depend on the processing

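With 1 library per condition no replicate could be left out. No paired analysis was possible because each condition has 1 FAIRE library. Of 61 alternatives over 14 values, 45 stayed within 1.5 times of a count or within the interval of a share or ratio, among them every alternative for the shared shares and for the ratio of condition-only sites, and 16 did not. HOX sites numbered 12 (basal) and 14 (overexpression) once sites narrower than the pooled median were dropped, and 12 and 13 in the upper part of each list by peak number (50% of the sites). HOX genes with a basal site fell to 14 when the site had to overlap the gene body. HOX 5′ ends with a basal site rose to 14 with any annotated transcript start. Empty intervals numbered 25 at a minimum of 5 kb and 8 at 20 kb. The CTCF share of HOX sites was 0% with no mismatch and 53.1% with 2, and that of bordering sites 0% and 68.4%, so the motif results depend on the mismatches allowed. In HOXA, 4 overexpression-only and 1 basal-only site remained among wide sites and likewise in the upper part of the lists. These 2 settings for HOXA were chosen after seeing the data.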

Other observations

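Other tandem gene families were counted in the same way. A site of either list lay within 10 kb of 42 of 53 protocadherin genes (79.2%), 63 of 74 histone genes (85.1%) and 10 of 177 olfactory receptor genes of chromosome 11 (5.65%). The share was 87.2% for HOX genes and 77.5% for all protein-coding genes. Merged sites per 100 kb of gene window numbered 2.76, 9.32 and 0.249, beside 6.02 at HOX genes. A site within 1 kb of the 5′ end was listed for 18.9% of the protocadherin genes, which code for adhesion proteins of neurons, for 66.2% of the histone genes and for 0.565% of the olfactory receptor genes, which serve smell. The corresponding share was 35.9% for HOX genes and 45.5% for all protein-coding genes. Of the 18 merged protocadherin sites 9 were shared, 6 basal-only and 3 overexpression-only, and of the 82 histone sites 45, 24 and 13. Genes of a family share sites, as HOX genes do, and these values were not tested against each other.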
